A study of Mus musculus with 3 samples.

Results

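The 35 genes described here encode enzymes and carriers that make, desaturate, activate, esterify and release fatty acids. They were taken as a list of symbols, and all 35 were found among the 33696 genes of the count matrices. By role, 10 belong to synthesis, 4 to desaturation, 6 to activation and acyl-CoA carrying, 12 to esterification into triglyceride and phospholipid precursors, and 3 to lipolysis. They were measured in single cells of mouse bone marrow with a droplet method that counts the 3' ends of transcripts. The cells came from mice homozygous for a knockout of Fabp4, mice heterozygous for the knockout, and wild-type mice. Each genotype was 1 library pooled from 2 mice, and which mouse a cell came from is not given in the sources used here. Age, strain, and whether any marrow carried leukaemia, which the series title names, are not given in the sources used here, and neither is the part of Fabp4 that the knockout removes.

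Fatty acids are built in the cytosol from acetyl-CoA. ATP citrate lyase (Acly) supplies acetyl-CoA, acetyl-CoA carboxylase (Acaca) makes malonyl-CoA, and fatty acid synthase (Fasn) joins the units, after which Elovl enzymes lengthen and Scd and Fads enzymes desaturate the chains. Long-chain acyl-CoA synthetases activate fatty acids, and the Gpat, Agpat and Dgat enzymes add them in turn to a glycerol backbone. Lipins remove a phosphate before the Dgat step gives triglyceride, which Pnpla2, Lipe and Mgll take apart again. Fabp4 is a fatty acid binding protein best known from adipocytes and macrophages, and myeloid cells use fatty acids for membranes, energy and lipid mediators.

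Total UMIs per library, where a UMI marks 1 captured transcript, ranged between 54160590 and 78426908. After removal of cells with a mitochondrial share of 10% or more, with minimums of 500 UMIs and 200 genes, there remained 4318 homozygous, 7957 heterozygous and 5604 wild-type cells. The mitochondrial limit was reached by 46.8% of 8115 homozygous, 25.8% of 10718 heterozygous and 40.6% of 9432 wild-type barcodes, so the libraries differed in this measure. Fabp4 gave 5 UMIs in homozygous, 38 in heterozygous and 50 in wild-type cells, or 0.108, 0.521 and 0.745 counts per 1000000 UMIs (CPM). A 3' count checks the genotype labels only if the knockout removes or destabilises that end. Cells with Y-linked RNA and no Xist numbered 142 in the homozygous, 4507 in the heterozygous and 74 in the wild-type library, and Xist stood at 1230, 208 and 1281 CPM in the same order. The heterozygous library therefore held mostly Y-expressing cells and the others mostly Xist-expressing cells, so sex and genotype cannot be told apart in comparisons with it. Pairs of libraries shared between 21 and 26 cell barcodes. Adipocyte and stromal markers summed to 2.47 CPM in homozygous, 6.38 CPM in heterozygous and 2.44 CPM in wild-type cells, with Lep at 0 UMIs in each library, so the lipid genes below were read in cells with little adipocyte RNA.

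Cells were gated on raw counts of 5 genes, none of them among the 35. The Cd34 gate needed at least 1 UMI of this progenitor marker, the Elane and Ltf gates needed 0.2% of a cell's UMIs from the early granulocyte protease Elane or the secondary granule gene Ltf, and the monocyte gate needed 1 UMI each of Ly6c2 and Ccr2. A class holds the cells that passed exactly 1 gate. No gate was passed by 47.0% of homozygous, 58.6% of heterozygous and 44.3% of wild-type kept cells. Several gates were passed by 5.47%, 4.78% and 10.8%, and all these cells are outside the 4 classes. The Cd34 class held 65 homozygous, 193 heterozygous and 436 wild-type cells, the Elane class 668, 625 and 806, the Ltf class 96, 1008 and 165, and the Ly6c2 Ccr2 class 1224, 1085 and 1105, in the same order of genotypes. Late granulocyte markers summed to 63125, 59711 and 59641 CPM in the homozygous, heterozygous and wild-type Ltf classes, against 7564, 16935 and 6283 CPM in the Elane classes. Monocyte markers summed to 4786, 3159 and 3245 CPM in the Ly6c2 Ccr2 classes, against 963, 952 and 1047 CPM in the Elane classes. Progenitor markers in the Cd34 classes summed to 1899, 2193 and 2896 CPM, against 1735, 1763 and 2833 CPM in cells that passed no gate. In the Cd34 classes most of this sum came from Meis1 and Mecom. Angpt1, 1 of the 7 markers of the list, had 256, 261 and 247 CPM in the Cd34 classes and 27.4, 53.4 and 107 CPM in all kept cells. The Elane classes had 20.3, 51.2 and 52.9 CPM of Angpt1, and the whole list summed there to 1489, 1437 and 1697 CPM. Class values of Kit, Hlf and Flt3 are not given here. Each of these lists contains its own gating genes.

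Of the 35 genes, 30 had at least 100 UMIs over the 3 libraries. The other 5 were Acacb, Me1, Scd1, Fads2 and Acsl6. Scd1, the stearoyl-CoA desaturase that dominates in liver and fat, gave 8 UMIs in homozygous, 7 in heterozygous and 13 in wild-type cells. Its relative Scd2 gave 906, 1329 and 1254 UMIs in the same order. Me1, a source of NADPH for synthesis, gave 7, 8 and 7 UMIs. Acsl6 gave 0 UMIs in homozygous cells and 1 UMI in each of the other libraries.

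**Figure D1:**
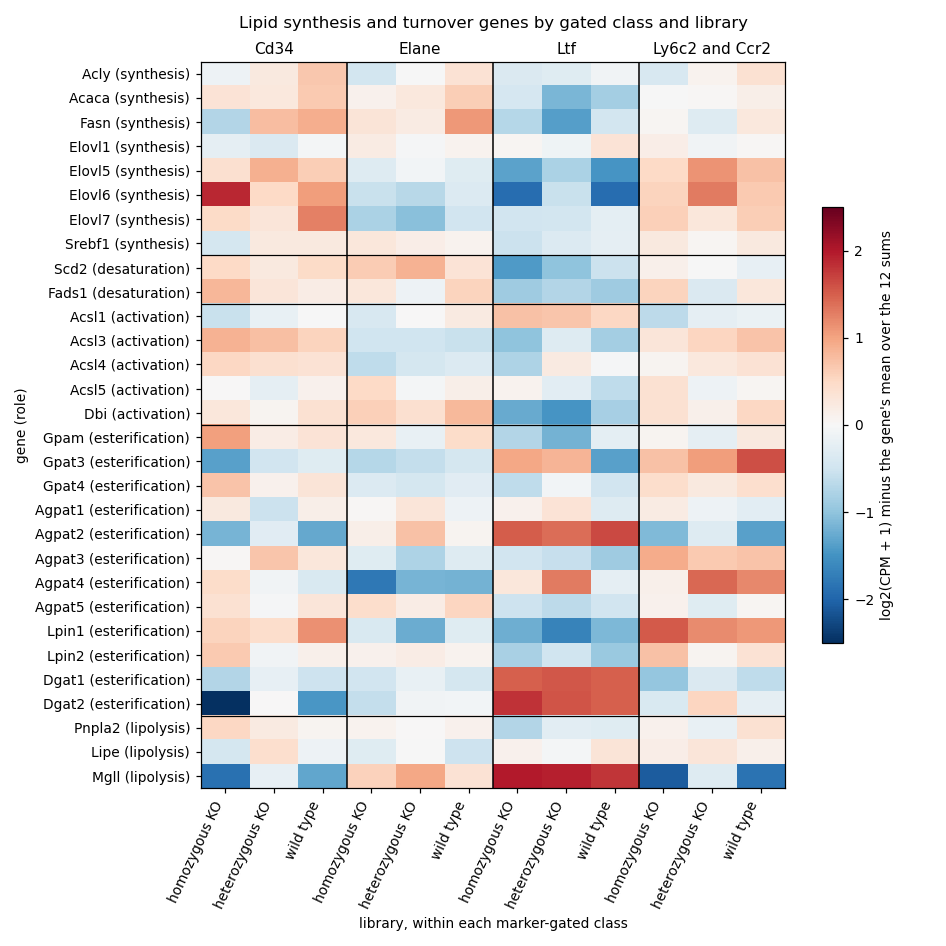
Heat map of the 30 members with at least 100 UMIs (rows, by role) in 4 gated classes and, within each class, the homozygous KO, heterozygous KO and wild-type libraries (columns). Colour is log2(CPM + 1) minus the gene's mean over the 12 sums; the Ltf columns stand apart in all 3 libraries, with Dgat1, Dgat2, Agpat2 and Mgll high and Fasn, Dbi and Elovl5 low.

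Classes were compared across the 3 libraries with edgeR's quasi-likelihood test on the 12 sums of UMIs, with the library as a block and TMM scaling, over 13741 genes. The libraries serve as repeats of each class difference, and they differ in genotype and sex. All 30 better-detected members were tested, and a call means a Benjamini-Hochberg adjusted p under 0.05. Between the Ltf and Elane classes 12 members were higher and 8 lower, where 25.6% of all genes were called higher and 28.5% lower. The counts were 7 higher without the heterozygous library, which supplied most Ltf cells, and 5 lower without the wild-type library. Between the Ly6c2 Ccr2 and Elane classes 11 were higher and 7 lower, beside 27.6% and 26.7% of all genes, and 4 were lower without the heterozygous or without the wild-type library. Between the Elane and Cd34 classes 5 were higher and 9 lower, beside 15.8% and 17.2%, and 3 were higher without the homozygous or without the wild-type library. Between the Ltf and Ly6c2 Ccr2 classes 7 were higher and 10 lower, beside 21.8% and 29.4%, and 6 were lower without the heterozygous library. The median log2 fold change of members was 0.20 for Ltf over Elane and 0.07 for Ly6c2 Ccr2 over Elane, beside -0.10 and -0.03 over all genes tested. Scaling to total UMIs in place of TMM lowered the median of all genes to -0.53 for Ltf over Elane and to -0.52 for Ltf over Ly6c2 Ccr2. With it 9 members were called higher and 12 lower for Ltf over Elane, and 5 higher and 18 lower for Ltf over Ly6c2 Ccr2. The share of calls that were higher, over all genes, went with it to 25.7%, against 47.3% under TMM, for Ltf over Elane, and to 21.1%, against 42.6%, for Ltf over Ly6c2 Ccr2.

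The early synthesis enzymes Fasn and Acaca were lower in Ltf than in Elane cells. Fasn had 9.44, 5.57 and 11.4 CPM in homozygous, heterozygous and wild-type Ltf cells, against 20.4, 18.8 and 35.3 CPM in Elane cells. The homozygous and wild-type Ltf classes held 96 and 165 cells, so their Fasn values rest on few UMIs. Every Ltf value lay below every Elane value. The share of all genes without such overlap was not counted, here or in the paragraphs below. The log2 fold change was -1.25 (SE 0.28, edgeR adjusted p = 0.00133). Acaca had 31.0, 18.4 and 22.9 CPM in Ltf cells, against 45.1, 50.9 and 65.2 CPM in Elane cells, again without overlap (log2 -0.87, SE 0.15, edgeR adjusted p = 1.8e-04). Acly did not pass the test between these classes, with 51.3, 53.5 and 62.5 CPM in Ltf cells and 48.1, 65.4 and 85.0 CPM in Elane cells (log2 0.15, edgeR adjusted p = 0.303). Fasn was also lower in Ly6c2 Ccr2 than in Elane cells (log2 -0.53, edgeR adjusted p = 0.0245), a call that was lost without the heterozygous and without the wild-type library. Srebf1, the transcription factor that drives lipogenic genes in liver, passed no contrast and stood between 5.40 and 10.2 CPM in all 12 sums.

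The elongases split between the classes. Elovl5, which lengthens polyunsaturated chains, had 89.9, 139 and 106 CPM in homozygous, heterozygous and wild-type Ly6c2 Ccr2 cells. Elane cells had 50.0, 60.0 and 51.0 CPM, and Ltf cells 24.3, 35.8 and 22.1 CPM. Each library kept the same order of these 3 classes. The log2 fold change was 1.08 for Ly6c2 Ccr2 over Elane (SE 0.11, edgeR adjusted p = 9.1e-07) and -1.58 for Ltf over Ly6c2 Ccr2 (SE 0.14, edgeR adjusted p = 1.8e-07). Elovl7 had 24.0, 19.1 and 24.4 CPM in Ly6c2 Ccr2 cells, against 8.52, 6.98 and 10.8 CPM in Elane cells (log2 1.41, SE 0.16, edgeR adjusted p = 2.4e-06). Elovl6, which extends palmitate, had 4.54, 8.26 and 4.86 CPM in Ly6c2 Ccr2 cells, against 1.55, 1.32 and 1.97 CPM in Elane cells (log2 1.84, SE 0.37, edgeR adjusted p = 6.5e-04). In Ltf cells Elovl6 had 0 UMIs in the homozygous and wild-type libraries, which allows up to 4.05 and 2.29 CPM (3 counts per library), so its fitted change there is no bound. Elane cells were lower than Cd34 cells in Elovl5 (log2 -0.80), Elovl6 (log2 -1.98) and Elovl7 (log2 -1.59), with edgeR adjusted p of 0.00012, 0.00325 and 1e-05. Elovl1, an elongase of saturated very long chains, was called higher in Ltf than in Elane cells (log2 0.43, edgeR adjusted p = 0.011), although its CPM was higher in 1 of 3 libraries, and the change was 0.01 without TMM.

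Among the desaturases Scd2 was lower in Ltf than in Elane cells. Scd2 had 5.40, 7.47 and 10.7 CPM in homozygous, heterozygous and wild-type Ltf cells, against 25.4, 30.1 and 20.5 CPM in Elane cells. All 4 desaturation genes together had only 4 UMIs in homozygous and 14 UMIs in wild-type Ltf cells. The groups did not overlap, and the log2 fold change was -1.26 (SE 0.22, edgeR adjusted p = 1.6e-04). Ly6c2 Ccr2 cells lay between them at 17.5, 15.9 and 13.8 CPM, below Elane cells (log2 -0.64, SE 0.15, edgeR adjusted p = 0.00195). Fads1, the delta-5 desaturase, had 0 UMIs in homozygous and wild-type Ltf cells and was called lower than in Elane cells (edgeR adjusted p = 0.0426). That call was lost in 9 of 12 alternatives.

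Activation and carrying genes moved in opposite directions in Ltf cells. Acsl1, a long-chain acyl-CoA synthetase, had 251, 243 and 215 CPM in homozygous, heterozygous and wild-type Ltf cells, against 114, 152 and 175 CPM in Elane cells (log2 1.10, SE 0.14, edgeR adjusted p = 6.1e-06). Every Ltf value lay above every Elane value. Dbi, the acyl-CoA binding protein, had 117, 99.4 and 157 CPM in Ltf cells, against 424, 369 and 490 CPM in Elane cells (log2 -1.39, SE 0.09, edgeR adjusted p = 1.2e-08). Dbi values did not overlap between the classes. Acsl3, a synthetase of the lipid droplet surface, had 11.5, 13.7 and 15.6 CPM in Ly6c2 Ccr2 cells, against 6.20, 6.17 and 5.83 CPM in Elane cells (log2 1.20, SE 0.18, edgeR adjusted p = 4.1e-05). Elane cells were lower than Cd34 cells in Acsl3 (log2 -1.21, edgeR adjusted p = 0.00057) and in the arachidonate-preferring Acsl4 (log2 -0.79, edgeR adjusted p = 0.00098). Acsl5 passed no contrast.

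**Figure D2:**
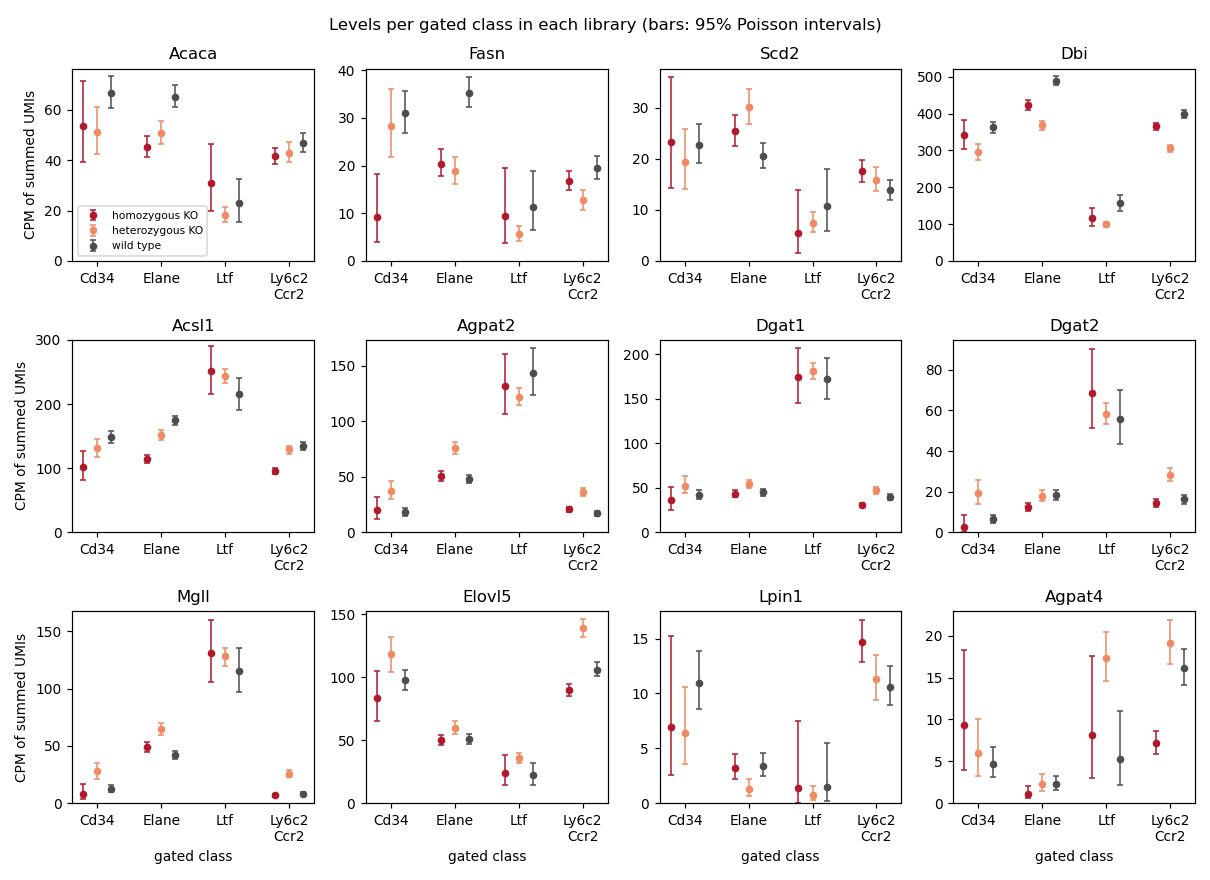
Levels in CPM of 12 members (panels) in the 4 gated classes, with the homozygous KO, heterozygous KO and wild-type libraries as points from left to right and 95% Poisson intervals as bars, axes starting at 0. Dgat1 stood at 174, 181 and 172 CPM in the Ltf class of the 3 libraries, above each of its other values, while Fasn, Scd2 and Dbi were low there.

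Dgat1 and Dgat2, which carry out the final step of triglyceride synthesis, and Agpat2, of an earlier acylation, were higher in Ltf than in Elane cells. Dgat1, which adds the third acyl chain, had 174, 181 and 172 CPM in homozygous, heterozygous and wild-type Ltf cells, against 43.3, 53.6 and 44.6 CPM in Elane cells. The spread among Ltf values was small beside the distance between the classes, and the log2 fold change was 2.28 (SE 0.11, edgeR adjusted p = 5.9e-10). Dgat2, an unrelated enzyme of the same step, had 68.8, 58.4 and 55.6 CPM in Ltf cells, against 12.2, 18.0 and 18.2 CPM in Elane cells (log2 2.21, SE 0.25, edgeR adjusted p = 2.6e-06). Agpat2, the acyltransferase whose loss causes lipodystrophy in people, had 132, 122 and 144 CPM in Ltf cells, against 50.3, 75.9 and 47.6 CPM in Elane cells (log2 1.58, SE 0.17, edgeR adjusted p = 1.3e-06). None of these 3 genes overlapped between the classes, with the share of all genes without overlap not counted. Under the 14 alternatives the log2 fold change of Dgat1 ran between 1.88 and 2.54, of Dgat2 between 1.80 and 2.39 and of Agpat2 between 1.19 and 1.84, with edgeR or DESeq2 adjusted p of at most 2.6e-07, 0.0001 and 0.00022.

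Several other esterification genes were higher in monocyte-gated than in Elane cells. Lpin1, a phosphatidate phosphatase, had 14.7, 11.3 and 10.6 CPM in homozygous, heterozygous and wild-type Ly6c2 Ccr2 cells, against 3.20, 1.32 and 3.41 CPM in Elane cells (log2 2.26, SE 0.24, edgeR adjusted p = 1.3e-06). Ltf cells had 1.35, 0.711 and 1.52 CPM of Lpin1, below Ly6c2 Ccr2 cells (log2 -3.14, SE 0.43, edgeR adjusted p = 1.8e-05). Lpin2, of the same step, had 35.1, 43.6 and 32.0 CPM in Ltf cells, against 104, 65.1 and 79.7 CPM in Ly6c2 Ccr2 cells (log2 -0.63, edgeR adjusted p = 0.0103), a call lost without the homozygous or the wild-type library. Both lipins had their lowest CPM in Ltf cells among the 4 classes in each of the 3 libraries. In homozygous and wild-type Ltf cells, however, Lpin1 lay below the level that 3 counts make there. In the homozygous library that level is above the Elane value of 3.20 CPM, so the order of Lpin1 between these 2 classes is not settled there. Gpat3, a glycerol-3-phosphate acyltransferase, had 3.30, 4.31 and 6.85 CPM in Ly6c2 Ccr2 cells, against 0.581, 0.708 and 0.909 CPM in Elane cells (log2 2.72, SE 0.43, edgeR adjusted p = 7e-05). Agpat3 also stood higher in Ly6c2 Ccr2 than in Elane cells, at 5.23, 4.13 and 4.35 CPM against 1.65, 0.911 and 1.59 CPM (log2 1.74, SE 0.28, edgeR adjusted p = 8.7e-05). Agpat4 was higher than in Elane cells both in Ly6c2 Ccr2 cells (log2 2.87, SE 0.30, edgeR adjusted p = 1.1e-06) and in Ltf cells (log2 2.94, SE 0.37, edgeR adjusted p = 6.5e-06). Its values were 7.16, 19.1 and 16.1 CPM in Ly6c2 Ccr2 cells, 8.09, 17.3 and 5.33 CPM in Ltf cells, and 1.16, 2.33 and 2.27 CPM in Elane cells. Agpat2 went the other way in Ly6c2 Ccr2 cells, at 20.6, 36.3 and 17.1 CPM (log2 -1.22 over Elane, SE 0.16, edgeR adjusted p = 1.2e-05). Gpat3 and Gpam, both of the first acylation step, were called in Ltf over Elane (log2 2.43 and -1.09, edgeR adjusted p = 0.00231 and 0.0472), but Gpat3 had 0 UMIs in wild-type Ltf cells and lost its call without the heterozygous library, and Gpam lost its call in 11 of 14 alternatives.

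Among the lipolysis genes Mgll passed the test in all 4 contrasts. Mgll, which releases the last fatty acid from monoglyceride, had 131, 128 and 115 CPM in homozygous, heterozygous and wild-type Ltf cells, and 48.9, 64.7 and 41.9 CPM in Elane cells. Ly6c2 Ccr2 cells had 6.91, 25.6 and 8.25 CPM, and Cd34 cells 8.13, 27.9 and 12.6 CPM. In each library Mgll was highest in Ltf cells and next in Elane cells. The log2 fold change was 1.61 for Ltf over Elane (SE 0.24, edgeR adjusted p = 4e-05), 1.74 for Elane over Cd34 (SE 0.29, edgeR adjusted p = 0.00031) and -2.04 for Ly6c2 Ccr2 over Elane (SE 0.24, edgeR adjusted p = 3.6e-06). Pnpla2, the first triglyceride lipase, passed no contrast and stood between 18.9 and 46.5 CPM. Lipe, the hormone-sensitive lipase, was called higher in Ltf over Elane (log2 0.72, edgeR adjusted p = 0.00268) with its CPM higher in 2 of 3 libraries, a call that was lost without the wild-type library and under total-UMI scaling.

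Elane cells stood above Cd34 cells in Mgll and Agpat2 (log2 1.31 for Agpat2, SE 0.19, edgeR adjusted p = 1.1e-04) and below them in Lpin1 (log2 -1.69, SE 0.30, edgeR adjusted p = 5.1e-04), Agpat3 (log2 -1.19, edgeR adjusted p = 0.0234) and Agpat4 (log2 -1.36, edgeR adjusted p = 0.0199). Of these the Agpat3 call was lost without the heterozygous or the wild-type library, and the Agpat4 call without the heterozygous or the homozygous library. Ltf cells stood above Ly6c2 Ccr2 cells in Mgll (log2 3.65, SE 0.26, edgeR adjusted p = 2.2e-08), Agpat2 (log2 2.80, SE 0.18, edgeR adjusted p = 6.4e-09) and Dgat1 (log2 2.54, SE 0.11, edgeR adjusted p = 2.7e-10). They did so also in Dgat2 (log2 1.94, edgeR adjusted p = 8.6e-06) and Acsl1 (log2 1.36, edgeR adjusted p = 8.1e-07), and stood below them in Dbi (log2 -1.17, edgeR adjusted p = 6.6e-08) and Agpat3 (log2 -1.50, edgeR adjusted p = 0.0083), the last lost without the heterozygous library.

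Summed over each role, and weighted by the most abundant genes, the 10 synthesis genes reached 161, 158 and 174 CPM in homozygous, heterozygous and wild-type Ltf cells, against 217, 240 and 289 CPM in Elane cells. The 12 esterification genes reached 495, 501 and 481 CPM in Ltf cells, against 297, 327 and 308 CPM in Elane cells. The 3 lipolysis genes reached 174, 176 and 169 CPM in Ltf cells, against 101, 119 and 92.2 CPM in Elane cells. Activation and carrying genes went lower, with 428, 428 and 440 CPM in Ltf cells, against 611, 587 and 738 CPM in Elane cells. Desaturation genes were also lower, with 5.40, 7.94 and 10.7 CPM in Ltf cells, against 26.8, 31.0 and 22.3 CPM in Elane cells. All 35 together reached 1262, 1269 and 1275 CPM in Ltf cells, against 1253, 1305 and 1449 CPM in Elane cells. On this scale of total UMIs the roles differed between these classes more than their total. The sums carry no TMM factors, which were 0.85, 0.733 and 0.848 for Ltf and 1.09, 1.04 and 1.06 for Elane cells. With these factors the Ltf sums would stand higher beside the Elane sums, so the comparison depends on the scaling.

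Of 49 further genes of lipid metabolism, 32 were tested, and between Ltf and Elane cells 12 were higher and 5 lower, beside 25.6% and 28.5% of all genes. With total-UMI scaling 7 were higher and 10 lower. Among those at least 2-fold higher were the ceramide desaturase Degs1 (log2 3.19), the dehydratase Hacd4 (log2 3.11), the fatty acid transporter Slc27a4 (log2 3.06), the lipolysis inhibitor G0s2 (log2 2.06), Abhd5, which activates Pnpla2 (log2 1.18), and the reductase Tecr (log2 1.17). Among those at least 2-fold lower were the dehydratases Hacd1 (log2 -3.76) and Hacd3 (log2 -2.21), with 2.70, 1.42 and 2.29 CPM of Hacd1 in homozygous, heterozygous and wild-type Ltf cells, against 44.0, 26.7 and 41.6 CPM in Elane cells. The lipid droplet coat gene Plin2 was higher by less (log2 0.74, edgeR adjusted p = 0.00033).

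Promoter windows from RefSeq (GRCm38.p6, 250 bases before to 50 after the start) were available for 28 of the 35 members, and those of Fasn and Agpat2 are shown because the first was low and the second high in Ltf cells. The windows lie at chr11:120824498-120824797 for Fasn and chr2:26604368-26604667 for Agpat2, both on the minus strand, and capitals mark CCAAT or its reverse complement ATTGG, the motif of the factor NF-Y.
Fasn: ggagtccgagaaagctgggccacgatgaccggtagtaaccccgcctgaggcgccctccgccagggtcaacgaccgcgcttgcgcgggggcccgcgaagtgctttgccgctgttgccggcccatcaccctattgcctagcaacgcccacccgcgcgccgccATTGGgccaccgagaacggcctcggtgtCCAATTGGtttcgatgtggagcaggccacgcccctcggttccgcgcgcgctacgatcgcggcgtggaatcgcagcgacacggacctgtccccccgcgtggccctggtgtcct
Agpat2: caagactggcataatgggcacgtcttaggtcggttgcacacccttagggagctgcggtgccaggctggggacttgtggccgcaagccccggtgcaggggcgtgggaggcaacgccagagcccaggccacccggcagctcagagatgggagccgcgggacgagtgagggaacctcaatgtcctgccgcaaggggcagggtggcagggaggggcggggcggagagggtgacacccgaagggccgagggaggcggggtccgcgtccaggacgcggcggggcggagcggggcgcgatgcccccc
The Fasn window held 3 matches, 2 of them overlapping on opposite strands, and the Agpat2 window held none. CCAAT in either strand was present in 19 of the members' 42 windows (45.2%), which belong to 16 members, and in 37.4% of all 32851 windows of this length. Mgll and Gpat3 had no match, as Agpat2, while Acsl1 and Agpat4, also higher in Ltf cells, and Dbi and Gpam, lower there, had 1 or more. Of members called in Ltf over Elane with a smaller change, Acaca, lower in Ltf cells, had no match. Acsl4, Elovl7 and Lipe, called higher there, had no match either. Elovl5, called lower there, and Elovl1, called higher, had 1 or more. The sterol response element TCACNCCAC was found in 1 of the 42 windows, in Acsl1, and in 1.24% of all windows. The C/EBP motif TTGCNNAA was found in 3 of the 42 windows, in Gpam, Agpat3 and Lpin2, and in 10.8% of all windows. Both strands were searched for all 3 motifs, which were chosen after the values above were seen, and a match is not evidence of binding.

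Between genotypes there is 1 library each, so differences are given as ratios of CPM with exact intervals that cover counting error only, and members past 1.5-fold are counted beside the share of all genes past it. In homozygous over wild-type cells, with 33 members tested, 0 were past 1.5-fold higher and 1 was past it lower, beside 11.5% and 9.62% of all genes. The median log2 ratio of members was -0.10, beside 0.06 over all genes. The gene past the threshold was Acly, at 51.7 CPM in homozygous and 88.4 CPM in wild-type cells (log2 -0.78, 95% interval -0.84 to -0.71), and the heterozygous library had 63.2 CPM.

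Acly values were lower in homozygous than in wild-type cells of all 4 classes, past 1.5-fold in 3 of them. The values were 60.4 and 106 CPM in Cd34 cells (log2 -0.81), 48.1 and 85.0 CPM in Elane cells (log2 -0.82), 51.3 and 62.5 CPM in Ltf cells (log2 -0.29, interval -0.88 to 0.29), and 50.2 and 87.0 CPM in Ly6c2 Ccr2 cells (log2 -0.79), homozygous before wild type. Over 10 alternatives in all kept cells the log2 ratio ran between -0.85 and -0.61. In cells with Xist only, which were most cells of both libraries, it was -0.79. Next to Acly, Acaca had 48.1 CPM in homozygous and 64.9 CPM in wild-type cells (log2 -0.43, interval -0.51 to -0.36), and Fasn 21.5 and 27.5 CPM (log2 -0.36, interval -0.47 to -0.25), both within 1.5-fold. Weighting each cell equally turned the Fasn ratio to 0.71. Of the 49 further genes 41 were tested here, and 0 were past 1.5-fold higher and 3 lower, beside the same 11.5% and 9.62% of all genes. Among the 3 was Acss2, which makes acetyl-CoA from acetate and was singled out after its values were seen. Homozygous cells had 3.02 CPM and wild-type cells 8.44 CPM (log2 -1.49, interval -1.76 to -1.22), with 8.11 CPM in heterozygous cells.

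**Figure D3:**
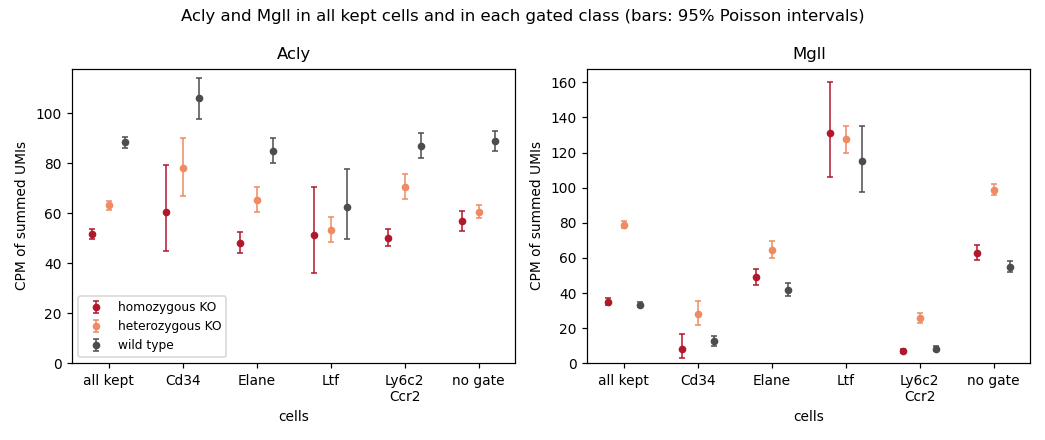
CPM of Acly and Mgll in all kept cells, in each gated class and in cells that passed no gate, with the homozygous KO, heterozygous KO and wild-type libraries from left to right and 95% Poisson intervals as bars. Homozygous Acly lay below wild type in each set, 51.7 against 88.4 CPM in all kept cells, and heterozygous Mgll lay above wild type in all kept cells, 78.8 against 33.3 CPM.

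Within classes, 5 of 30 tested members were past 1.5-fold lower in homozygous over wild-type Elane cells and 0 were past it higher, beside 9.27% and 8.40% of all genes. Beside Acly and the sparsely detected Acacb these were Fasn, at 20.4 CPM in homozygous and 35.3 CPM in wild-type cells (log2 -0.79, interval -1.03 to -0.55), Acsl1, at 114 and 175 CPM (log2 -0.62, interval -0.72 to -0.52), and Agpat4, at 1.16 and 2.27 CPM (log2 -0.97, interval -2.07 to 0.04). In Ly6c2 Ccr2 cells 3 of 30 were past it lower and 0 higher, beside 9.45% and 11.9%. These were Acly, Gpat3 at 3.30 CPM in homozygous and 6.85 CPM in wild-type cells (log2 -1.05, interval -1.57 to -0.55), and Agpat4 at 7.16 and 16.1 CPM (log2 -1.17, interval -1.51 to -0.84). In Cd34 cells 3 of 28 were past it higher and 7 lower, beside 13.5% and 12.5%, on 65 homozygous cells. Mast cell and basophil markers summed there to 138 CPM in homozygous and 2.05 CPM in wild-type cells, with Fcer1a at 0 in both, and monocyte markers to 2885 and 1583 CPM. Their part in the ratios was not tested. Fasn stood there at 9.29 CPM in homozygous cells, from 8 UMIs, and 31.0 CPM in wild-type cells (log2 -1.74), and at -0.46 when cells passing several gates were included. Elovl7 had 22.1 CPM in homozygous and 38.7 CPM in wild-type Cd34 cells (log2 -0.81, interval -1.57 to -0.14). The others were Acly, Srebf1, Lpin1, Dgat2 and Mgll on the lower side and Elovl6, Gpam and Agpat4 on the higher side, and of these only Acly had an interval that left out 0. In Ltf cells 1 of 19 was past it in each direction, beside 8.55% higher and 13.5% lower, on 96 homozygous cells. Acsl4 had 28.3 CPM in homozygous and 48.0 CPM in wild-type Ltf cells (log2 -0.76, interval -1.55 to -0.03), and Acsl5 27.0 and 16.0 CPM (log2 0.75, interval -0.21 to 1.71).

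In heterozygous over wild-type cells 6 of 33 members were past 1.5-fold higher and 9 lower, beside 11.6% and 17.6% of all genes. The median log2 ratio was -0.21, beside -0.14 over all genes. Mgll had 78.8 CPM in heterozygous and 33.3 CPM in wild-type cells (log2 1.24, interval 1.17 to 1.31), Dgat2 34.1 and 17.2 CPM (log2 0.99, interval 0.89 to 1.09), Agpat2 66.2 and 34.0 CPM (log2 0.96, interval 0.89 to 1.04), and Dgat1 91.7 and 53.0 CPM (log2 0.79, interval 0.73 to 0.85). Agpat4 had 16.4 CPM in heterozygous and 8.79 CPM in wild-type cells (log2 0.90, interval 0.75 to 1.04). The sixth was Fads2, on 46 and 18 UMIs. The homozygous library stood within 1.5-fold of wild type for all 6, with Agpat4 just inside that limit (log2 -0.58) and within it in 5 of 10 alternatives.

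On the lower side, Fasn had 13.7 CPM in heterozygous and 27.5 CPM in wild-type cells (95% interval of the log2 ratio -1.12 to -0.89). Dbi had 235 and 378 CPM (log2 -0.69, interval -0.71 to -0.66), and Acaca 42.2 and 64.9 CPM (log2 -0.62, interval -0.69 to -0.55). Elovl7 had 11.9 and 21.2 CPM (log2 -0.84), Lpin1 4.53 and 8.27 CPM (log2 -0.87), and Gpam 2.20 and 3.80 CPM (log2 -0.79), heterozygous before wild type. In Xist-only cells these 3 stood at -0.31, 0.23 and -0.29 on the log2 scale, all within 1.5-fold and Lpin1 of opposite sign. Fads1, Acacb and Scd1 were lower on 31, 18 and 7 heterozygous UMIs, and the interval of Scd1 included 0.

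**Figure D4:**
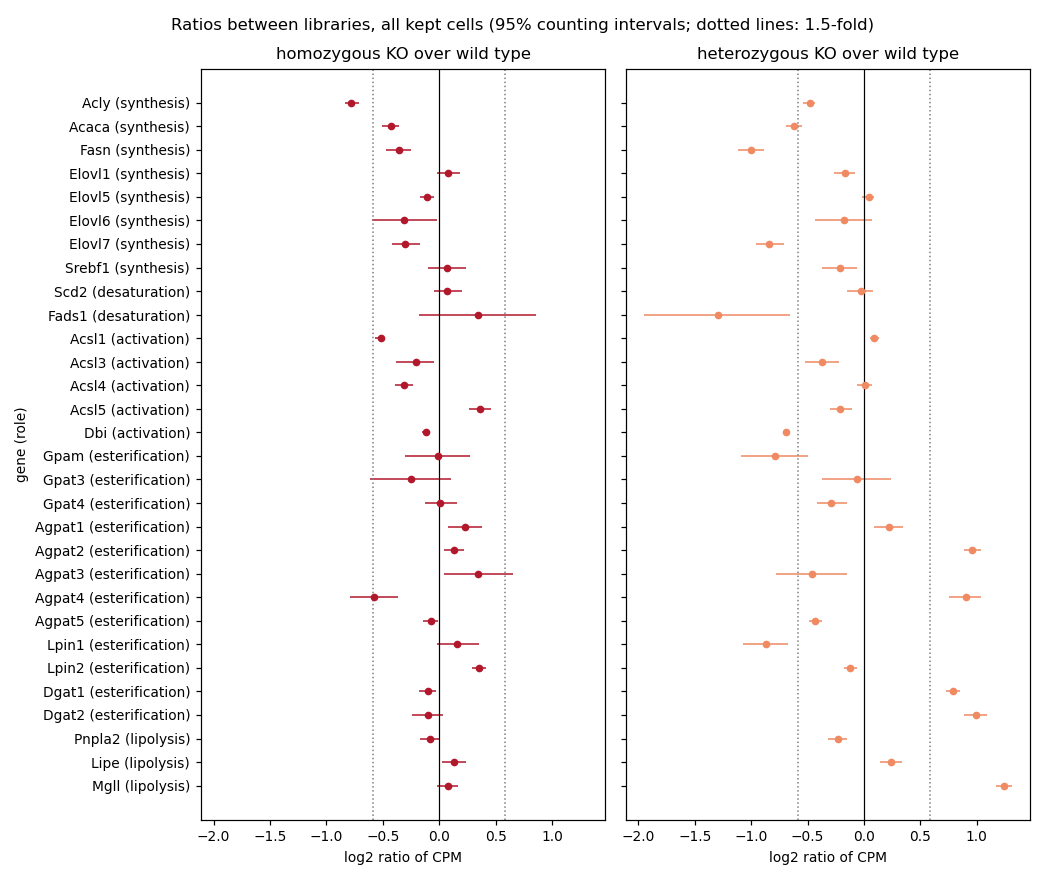
Log2 ratio of CPM in all kept cells for the 30 members with at least 100 UMIs, homozygous KO over wild type on the left and heterozygous KO over wild type on the right, with 95% counting intervals and dotted lines at 1.5-fold. In the left panel Acly lies past the line at -0.78; in the right panel Mgll, Dgat2, Agpat2, Agpat4 and Dgat1 lie past it on the higher side. The panels share the wild-type library.

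The heterozygous library had more Ltf cells, 12.7% of kept cells, against 2.94% in wild type and 2.22% in homozygous cells. When the classes, with ungated and multiply gated cells, were weighted by their UMI shares in the wild-type library, the heterozygous ratio was 0.86 for Mgll, 0.73 for Agpat2, 0.66 for Dgat2, 0.62 for Agpat4 and 0.42 for Dgat1 on the log2 scale, and -0.79 for Fasn, -0.49 for Acaca and -0.43 for Dbi. Dgat1, Acaca and Dbi were then within 1.5-fold. In cells with Xist only, 1148 of them heterozygous, the ratios were 0.66 for Mgll, 0.37 for Agpat2, 0.38 for Dgat2, 0.30 for Dgat1 and 1.15 for Agpat4, and -0.95 for Fasn and -0.53 for Acaca. There 3 members were past 1.5-fold higher and 3 lower.

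**Figure D5:**
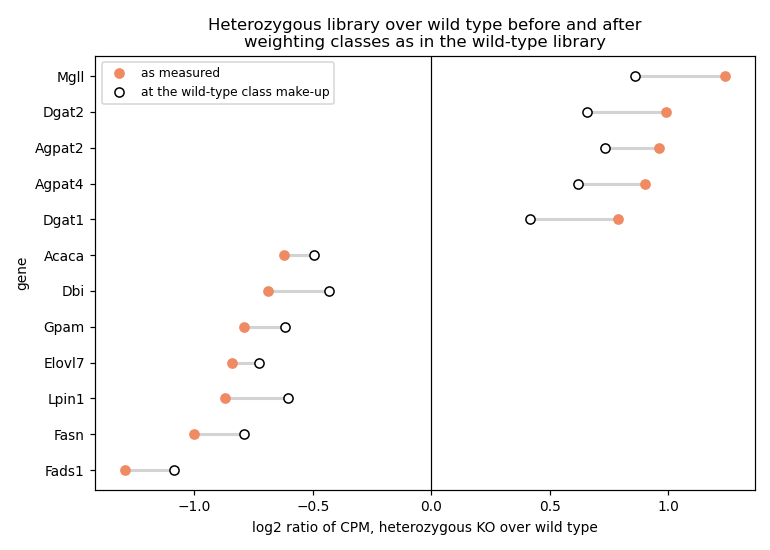
Log2 ratio of CPM, heterozygous KO over wild type, for the 12 members with at least 100 UMIs that were past 1.5-fold in all kept cells, as measured (filled) and with classes weighted as in the wild-type library (open). Each ratio lies nearer to 0 after weighting, for example 0.42 beside 0.79 for Dgat1.

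Inside the gates Mgll, Dgat2 and Agpat2 were also higher in heterozygous than in wild-type Ly6c2 Ccr2 cells. Mgll had 25.6 CPM in heterozygous and 8.25 CPM in wild-type cells (log2 1.63), Agpat2 36.3 and 17.1 CPM (log2 1.09), and Dgat2 28.1 and 16.2 CPM (log2 0.79). In all, 4 of 30 members were past 1.5-fold in each direction there, beside 9.73% of genes higher and 7.99% lower. The fourth on the higher side was Elovl6, and the lower 4 were Fasn, Fads1, Gpam and Gpat3. In Xist-only cells of that class the ratios were 0.89 for Mgll, 0.42 for Agpat2 and 0.11 for Dgat2. The 6 late granulocyte markers summed to 8611 CPM in heterozygous and 1633 CPM in wild-type cells of that class, to 7220 and 1223 CPM in Cd34 cells, and to 16935 and 6283 CPM in Elane cells, and their part in these ratios was not tested. The 5 dendritic cell markers also differed, at 2434 CPM in heterozygous and 491 CPM in wild-type Ly6c2 Ccr2 cells, 667 and 113 CPM in Cd34 cells, 62.8 and 19.5 CPM in Elane cells, 107 and 22.9 CPM in Ltf cells, and 847 and 213 CPM in all kept cells. Their part was not tested either. In Cd34 cells Dgat2 had 19.3 CPM in heterozygous and 6.29 CPM in wild-type cells (log2 1.62), Mgll 27.9 and 12.6 CPM (log2 1.15) and Agpat2 37.3 and 18.1 CPM (log2 1.04), where 3 of 28 members were past it higher and 4 lower, beside 9.99% and 9.38%. The lower 4 in Cd34 cells were Elovl6, Elovl7, Agpat1 and Lpin1. In Xist-only Cd34 cells the ratios were 0.31 for Dgat2, -0.07 for Mgll and 0.07 for Agpat2. That subset held 39 heterozygous cells with 411434 UMIs of all genes. Its ratios rest on few counts, are given without intervals and do not show that the differences were absent there.

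In Ltf cells, where late granulocyte markers stood at 59711 CPM in heterozygous and 59641 CPM in wild-type cells, Mgll had 128 CPM in heterozygous and 115 CPM in wild-type cells, Dgat1 181 and 172 CPM, Dgat2 58.4 and 55.6 CPM and Agpat2 122 and 144 CPM, all within 1.5-fold. Fasn was lower there at 5.57 CPM in heterozygous and 11.4 CPM in wild-type cells (log2 -1.04, interval -1.90 to -0.09), and 5 of 25 members were past it higher and 2 lower, beside 10.9% and 14.4%. Dbi was the other lower gene, at 99.4 and 157 CPM (log2 -0.66, interval -0.88 to -0.43), and the higher ones were Elovl5, Acsl3, Gpat3, Agpat1 and Agpat4, where Agpat4 had 17.3 CPM in heterozygous and 5.33 CPM in wild-type cells (log2 1.70, interval 0.62 to 3.04). In Elane cells Fasn had 18.8 CPM in heterozygous and 35.3 CPM in wild-type cells (log2 -0.91, interval -1.16 to -0.66), and 2 of 30 members were past it higher and 7 lower, beside 7.59% and 10.4%. The higher pair were Agpat2 and Mgll, and the other lower genes were Acacb, Elovl7, Fads1, Gpam, Agpat3 and Lpin1.

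Some members differed between cells of 1 library by sex marker, and the 3 given here were chosen after their values were seen. The first is Agpat4. In the homozygous library Agpat4 had 27.1 CPM in the 142 cells with Y-linked RNA only and 4.37 CPM in the 3636 cells with Xist only. In the wild-type library it had 28.3 CPM in 74 such Y-linked cells and 8.33 CPM in 5151 Xist cells, and in the heterozygous library 15.2 CPM in 4507 and 18.4 CPM in 1148. Agpat3 had 10.8 CPM in Y-linked and 3.03 CPM in Xist cells of the homozygous library, intervals of 1.45 to 2.28 and 2.87 to 5.43 CPM in the heterozygous library, and intervals of 4.42 to 22.6 and 2.31 to 3.13 CPM in the wild-type library. Of Scd1, 5 of 8 UMIs in the homozygous and 8 of 13 UMIs in the wild-type library came from these few Y-linked cells. Class make-up was not matched between these subsets.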

How the data were processed

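The deposited files are raw UMI counts, 1 matrix of genes by barcodes per library. Per the file headers they were made with cellranger 8.0.1; per the submitters' processing notes the tools were Cell Ranger and STAR and the build mm10, and the annotation release is not given in the sources used here. Libraries were prepared with the 10x Chromium 3' v3 kit, per the labels' protocols. The deposited barcodes had at least 500 UMIs.

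Members and lists were chosen with earlier results of these data known. Full values are given for members with at least 100 UMIs that were past 1.5-fold in a library comparison, or called with a change of at least 2-fold in a class contrast, and the rest by counts. From the counts, sums over the cells of each class were scaled to CPM (per 1000000 UMIs) with 95% Poisson (Garwood) intervals; ratios have exact conditional intervals, and genes needed at least 20 UMIs in the 2 libraries. Classes were tested with edgeR 4.0.16 (quasi-likelihood, TMM, filterByExpr, library as block, 6 residual degrees of freedom), with DESeq2 1.42.0 as an alternative. Intervals cover counting error only. Promoters, motifs and the genes in multi-gene plots were chosen after the values were seen. Scrublet (scanpy 1.11.5) made 0, 2 and 2 automatic calls in homozygous, heterozygous and wild-type cells and so had not worked; doublets were kept, and the top-scoring 280, 682 and 423 cells were removed only as an alternative. The interval and class scripts were tested on simulated data. Other software was Python 3.11.15, numpy 2.4.6, scipy 1.17.1, pandas 2.3.3, matplotlib 3.10.9 and R 4.3.3.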

Additional observations from a re-analysis of the deposited data

Results flagged for a closer look

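Gpat3 moved in opposite directions in 2 classes of heterozygous over wild-type cells. In Ltf cells it had 31 UMIs in heterozygous and 0 UMIs in wild-type cells. Set against 3 wild-type counts, that is 1.60-fold higher (log2 0.68). This value leaves out the counting error of the 31 UMIs and is not a lower bound. In Ly6c2 Ccr2 cells Gpat3 had 48 UMIs, or 4.31 CPM, in heterozygous and 93 UMIs, or 6.85 CPM, in wild-type cells (log2 -0.67). The rule that picked Gpat3, opposite directions past 1.5-fold in 2 classes, was set after the ratios were seen. The difference between the classes was not tested, since there is 1 library per genotype.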

How the results depend on the processing

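No paired analysis was possible because each genotype has 1 library and the titles carry only the number 1, so the groups share fewer than 2 numbers. All counts below are of members. In homozygous over wild-type cells (0 higher and 1 lower past 1.5-fold), the counts were 1 and 3 under stricter cell limits (more UMIs and less mitochondrial RNA), and 3 and 5 in cells with Y-linked RNA only (142 homozygous and 74 wild-type). Higher counts were 2 with equal weight per cell and 4 at a laxer fold threshold; lower counts were 2 without top-scoring doublets, 2 in Xist-only cells, 4 with TMM, 2 without the 100 most abundant genes, 2 with at least 1 UMI, 0 at 2-fold and 6 at a laxer fold threshold. In heterozygous over wild-type cells (6 and 9), they were 3 and 3 in Xist-only cells and 2 and 4 at 2-fold. Over the 4 classes summed, homozygous over wild type (4 higher, 16 lower) gave 1 and 5 with Y-linked RNA only, 0 and 9 with at least 100 UMIs, 0 and 4 at 2-fold, 17 and 29 at a laxer fold threshold, 2 higher with at least 2 UMIs per gate gene and 11 higher with at least 1 UMI. Heterozygous over wild type (14 higher, 17 lower) gave 53 higher with Y-linked RNA only, 24 higher with at least 1 UMI, 7 lower with at least 100 UMIs, 7 and 6 at 2-fold, and 24 and 34 at a laxer fold threshold. With Y-linked RNA only the wild-type classes held 2 Cd34, 9 Elane, 4 Ltf and 7 Ly6c2 Ccr2 cells. Those counts therefore rest on few wild-type UMIs, and a member without wild-type UMIs counted as higher. Among class contrasts, total UMIs without TMM gave 3 higher for Elane over Cd34 and 18 lower for Ltf over Ly6c2 Ccr2. Requiring 2-fold as well gave 2 higher for Elane over Cd34, 7 higher and 5 lower for Ltf over Elane, 2 lower for Ly6c2 Ccr2 over Elane and 5 lower for Ltf over Ly6c2 Ccr2. Leaving out each library in turn gave 3 to 4 higher for Elane over Cd34, 7 to 12 higher and 5 to 7 lower for Ltf over Elane, 4 to 6 lower for Ly6c2 Ccr2 over Elane, and 6 to 8 lower for Ltf over Ly6c2 Ccr2.

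Single ratios changed sign in these alternatives, homozygous over wild type first. In Cd34 cells Srebf1 was 0.16 with gates at 0.5%, Agpat4 -1.18 in Xist-only cells and -0.43 with equal weight, and Mgll 0.20 in Xist-only cells. Those Xist-only Cd34 cells numbered 41 in the homozygous library. For heterozygous over wild type, all kept cells with Y-linked RNA only gave Elovl7 0.18, Gpam 0.34 and Agpat4 -0.90, and Xist-only cells gave Lpin1 0.23. In Cd34 cells Elovl6 was 0.00 and Agpat1 0.02 with overlapping gates, and Elovl6 0.12 with gates at 0.05%. Mgll was -0.07 in Xist-only Cd34 cells, of which 39 were heterozygous. Xist-only cells gave Elovl7 0.70 and Agpat3 1.34 in Elane cells (82 heterozygous) and Gpam 0.20 in Ly6c2 Ccr2 cells. Y-linked cells gave Agpat4 -1.58 in Ltf cells, of which only 4 were wild-type. The cause was not tested.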
